A study of Mus musculus with 10 samples.

Results

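Mutant set 3 was compared with mutant set 1, 2 groups of E14 mouse embryonic stem cells that both carry the ANKRD11 Y347A mutation. The comparison uses 4 of the 10 RNA-seq libraries of the series, 2 per set, chosen by the set number in their labels. The other libraries are 2 of mutant set 2 and 4 of unedited wild-type E14 cells (sets 1 and 2, untreated), and the wild-type libraries serve here only as a reference level. E14 is a stem cell line from a male blastocyst, and the mutation was introduced with CRISPR/Cas9 genome editing. The labels do not say whether a numbered set is a cell clone, a culture or a day, or whether 1 or both Ankrd11 copies are edited, so p-values measure only the spread between these libraries, which may be technical. Both sets carry the same mutation, so a difference between them is not a difference between genotypes as labelled.

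ANKRD11 regulates transcription in the nucleus, in part by recruiting histone deacetylases. The title of the study links it to cohesin, the ring complex that holds sister chromatids together and shapes chromatin loops. Embryonic stem cells keep the gene programme of the early epiblast, led by transcription factors such as Oct4 (gene Pou5f1), Sox2 and Nanog. Imprinted genes, a group described in detail below, are expressed mainly from the copy inherited from one parent, a choice kept by DNA methylation at control regions. Xlr genes form a family on the X chromosome related to a protein of the meiotic chromosome axis.

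Levels are TPM (transcript abundance scaled to the same total in each library), a unit that keeps no sequencing depth. The 4 libraries held 12625 to 12812 genes at 1 TPM or more. Most stem cell markers were high in all 4 (Pou5f1 1026 to 1185 TPM, Sox2 275 to 298 TPM, Nanog 312 to 352 TPM). Lin28a was lower, at 7.87 to 12.1 TPM, against 16.3 to 21.1 TPM in wild-type cells. Pou5f1, Nanog and Zfp42 (218 to 251 TPM against 345 to 372 TPM) also lay below every wild-type library. Esrrb and Tdgf1 lay above every wild-type library, and Sox2 and Sall4 overlapped the wild-type range. Defining markers of other cells were mostly at or near 0, with Gata6 at most 0.85 TPM, Cdx2 at most 1.14 TPM, T at most 0.87 TPM and Thy1 at most 1.78 TPM. Neurog2, Col3a1 and Zfp352 stood at 0. Tubb3, a neuronal tubulin, stood at 13.04 to 22.1 TPM. Other genes of the marker lists, chosen after their values were seen, were well above 0. Among them were Elf3 (trophoblast, 124 to 131 TPM), Stmn2 (neural, 165 to 176 TPM) and Vim (fibroblast, 120 to 144 TPM). Gata2 (trophoblast) stood at 32.2 and 23.7 TPM in set 1 and at 16.6 and 20.1 TPM in set 3. A share of other cells was not tested. Cytosolic ribosomal protein genes took 26.2% and 27.1% of all transcripts in set 1 and 25.2% and 25.0% in set 3, and mitochondrial transcripts 7.03% and 6.86% against 7.81% and 7.98%. The part of these shares in the results below was not tested.

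Ankrd11 itself did not pass the test between the sets. It stood at 69.0 and 60.5 TPM in set 1, at 61.4 and 60.7 TPM in set 3, and at 58.0 to 66.0 TPM in wild-type cells. The log2 difference, set 3 minus set 1 on the log2(TPM + 1) scale used throughout, was -0.08 ± 0.08 (SE, adjusted p = 0.587). Since the edit replaces 1 amino acid, an mRNA level cannot check the labels.

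Across the transcriptome, 43 of 12772 tested genes (0.337%) differed at an adjusted p under 0.05 in limma, 27 of them higher (0.211%) and 16 lower (0.125%) in set 3. The largest differences with named genes were in Xlr genes, imprinted transcripts, Faf1 and Magea4 on the higher side, and in Grb10, Calb2 and Bahcc1 on the lower side. The median log2 difference of all tested genes was 0.06. The libraries of the 2 sets did not overlap for 6939 genes (54.3%), which is the background for each such statement below. The 43 calls rest on all 4 libraries together: with 1 library of set 1 left out, limma called 0 genes (2921 genes at an unadjusted p under 0.05 without replicate 1 and 1956 without replicate 2), without replicate 1 of set 3 it called 24, of which 4 were among the 43, and without replicate 2 of set 3 it called 2, of which 1 was among them. When all 10 libraries were used to estimate the spread, with the same difference between sets 3 and 1, 886 genes (6.94%) passed, 615 higher (4.82%) and 271 lower (2.12%), and 38 of the 43 were among them.

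**Figure D1:**
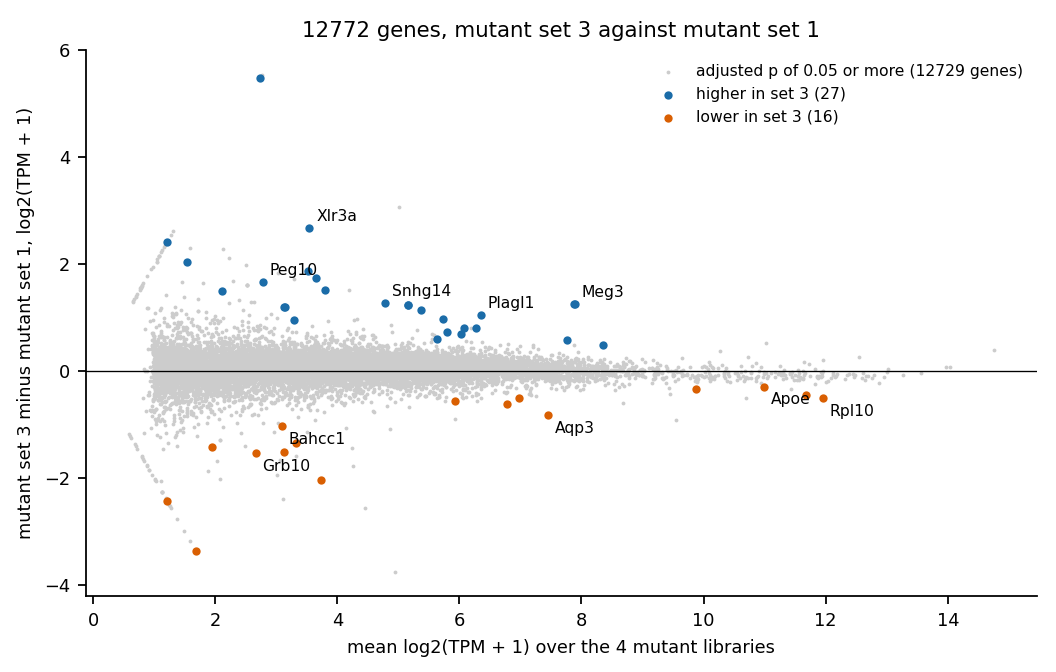
Each point is 1 of 12772 genes, with the mean log2(TPM + 1) of the 4 mutant libraries on the x axis and the difference of mutant set 3 minus mutant set 1 on the y axis. The 27 genes higher and 16 genes lower in set 3 at a limma adjusted p under 0.05 are in colour, and the lowered genes of high level (Aqp3, Apoe, Rpl10) differed by less than 1 on the log2 scale.

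The noncoding RNAs of the Dlk1-Dio3 imprinted region, Meg3, Rian and Mirg, were each about as high in mutant set 1 as in wild-type cells or a little above, and more than doubled in set 3. They are expressed from the maternal copy, and Rian and Mirg are hosts of small nucleolar RNAs and microRNAs. Meg3 (ENSMUSG00000021268.17, mm10 chromosome 12, 109541001 to 109571726) stood at 159 and 146 TPM in set 1 and at 381 and 355 TPM in set 3. Wild-type libraries held 106 to 120 TPM, so both set 1 libraries were above them too. The set 3 libraries were thus above every other library shown, and the ratio of means was 2.41 (log2 difference 1.27 ± 0.06, adjusted p = 0.011). Rian (chromosome 12, 109603940 to 109661716) stood at 154 and 150 TPM in set 1, at 366 and 360 TPM in set 3, and at 150 to 175 TPM in wild-type cells (1.25 ± 0.04, adjusted p = 0.0054), so set 1 lay within the wild-type range and set 3 far above it. Mirg, which falls outside the rule for named genes and was chosen after its values were seen, stood at 24.0 and 20.8 TPM in set 1 and at 52.7 and 55.8 TPM in set 3 (1.24 ± 0.09, adjusted p = 0.018). These were the 3 tested genes between the start of Meg3 and the end of Mirg, a stretch of 0.208 Mb, and their ratios of 2.41, 2.39 and 2.42 were close to each other. In the other 483 tested genes of chromosome 12 the median log2 difference was 0.08.

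The window at the annotated start of Meg3 is shown because its transcript led this group. Of the gene's windows it is the one with the most CG, and it runs from 250 bases before to 50 bases after the start (RefSeq, GRCm38.p6, chr12:109540746-109541045, plus strand), with CG dinucleotides, the sites of DNA methylation, in capitals. It holds 13 CG sites, and 37.9% of 32851 windows of this length hold at least as many. No methylation was measured here.
Meg3: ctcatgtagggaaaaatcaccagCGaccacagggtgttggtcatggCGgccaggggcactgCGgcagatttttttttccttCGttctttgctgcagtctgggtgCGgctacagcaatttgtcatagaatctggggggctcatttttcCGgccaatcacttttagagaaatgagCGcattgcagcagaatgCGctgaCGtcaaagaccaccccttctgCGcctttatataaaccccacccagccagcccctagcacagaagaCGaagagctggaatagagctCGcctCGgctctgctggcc

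Transcripts of a second imprinted region, around Snrpn on chromosome 7, were also higher in set 3. Snhg14, the long host RNA of small nucleolar RNAs in this region (chromosome 7, 59307924 to 59975759), stood at 16.5 and 17.0 TPM in set 1 and at 41.7 and 42.3 TPM in set 3, with 26.2 to 32.7 TPM in wild-type cells. Set 1 was below the wild-type range and set 3 above it, and the sets differed 2.51-fold (1.28 ± 0.07, adjusted p = 0.011). Snrpn, which encodes a protein of the spliceosome and was chosen after its values were seen, stood at 28.2 and 25.9 TPM in set 1, at 58.2 and 63.4 TPM in set 3 and at 68.4 to 77.5 TPM in wild-type cells (1.14 ± 0.08, adjusted p = 0.017). Ube3a, a ubiquitin ligase whose gene Snhg14 overlaps on the other strand, had a log2 difference of 0.15 ± 0.11 (adjusted p = 0.460). The sources used here do not state whether counting used strand, so reads of Snhg14 and Ube3a may have been mixed. Snurf overlaps Snrpn, and its values (9.07 and 122 TPM in set 1, 105 and 0 TPM in set 3) varied so much between libraries of 1 set that nothing was read from them. The split of reads between Snurf and Snrpn is uncertain, which also limits the Snrpn result.

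Further imprinted genes differed in both directions. Peg10, derived from a retrotransposon and expressed from the paternal copy (chromosome 6, 4747306 to 4760517), stood at 2.96 and 2.79 TPM in set 1 and at 11.4 and 11.3 TPM in set 3, 3.93-fold apart (1.67 ± 0.11, adjusted p = 0.014). All 4 values lay below the wild-type range of 25.0 to 38.3 TPM. Its neighbour Sgce, which encodes a sarcoglycan and shares the paternal expression, stood at 2.08 and 2.55 TPM against 6.95 and 7.72 TPM, and narrowly missed the threshold (1.33 ± 0.14, adjusted p = 0.053); it was named after its values were seen. Plagl1, a zinc finger transcription factor also named after its values were seen, stood at 60.8 and 51.2 TPM in set 1, at 117 and 117 TPM in set 3, and at 112 to 174 TPM in wild-type cells (1.06 ± 0.09, adjusted p = 0.030). Set 1 was thus the group below the wild-type range.

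Grb10, an adaptor protein that restrains insulin and IGF receptor signalling (chromosome 11, 11930508 to 12038683), went the other way. It stood at 10.5 and 9.06 TPM in set 1 and at 2.64 and 2.80 TPM in set 3, 3.59-fold lower (-1.53 ± 0.12, adjusted p = 0.028). Here set 1 lay in the wild-type range of 7.85 to 11.4 TPM and set 3 below it. Neither direction was shared by all genes of the imprinted list, which does not include Snhg14 (it stands in the list of small nucleolar RNA hosts): 50 imprinted genes were listed and 35 were tested, of which 6 were higher, 1 was lower and 28 did not pass, and the list's median of 0.12 was near that of all genes. With the spread of 10 libraries 10 were higher and 3 lower, and the counts ranged from 9 to 11 higher and from 2 to 3 lower when 1 library of sets 1 and 3 was left out. The 6 further imprinted calls of that fit were Sgce, Mest, Peg3 and Sfmbt2, all higher, and Slc38a4 and Slc22a18, both lower. Over all tested genes 0.211% were higher and 0.125% lower on 4 libraries, and 4.82% and 2.12% with the spread of 10. These shares are those of the fits with no library left out, and they shifted when a library was left out.

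**Figure D2:**
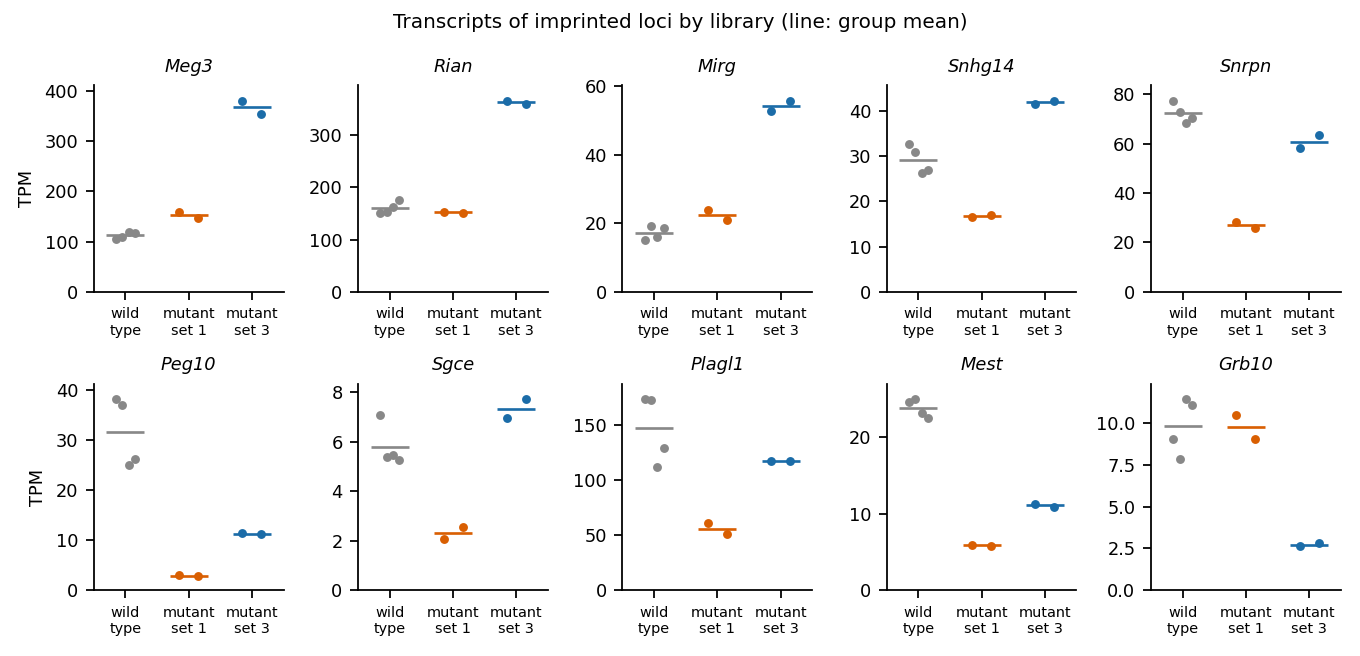
TPM of 10 imprinted transcripts in the 4 wild-type, 2 mutant set 1 and 2 mutant set 3 libraries (1 point per library, line at the group mean, y axis from 0). Meg3, Rian and Mirg are highest in set 3, Meg3 is also above the wild-type range in set 1, Grb10 is low in set 3 alone, and Peg10 is below the wild-type range in both sets. Sgce and Mest passed the test only with the spread of 10 libraries.

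The Xlr genes gave the largest difference among named genes. Xlr3a (ENSMUSG00000057836.12, X chromosome, 73086293 to 73097095) stood at 3.52 and 3.68 TPM in set 1 and at 30.5 and 26.8 TPM in set 3, 7.96-fold apart (2.69 ± 0.10, adjusted p = 0.0077). The wild-type libraries held 30.1 to 46.1 TPM, so set 3 was at their lower edge and set 1 far below. Mutant set 2, at 4.08 and 6.45 TPM, was near set 1. Xlr4a stood at 0.38 and 0.49 TPM against 5.53 and 4.33 TPM (2.04 ± 0.18, adjusted p = 0.034), and Xlr3b at 1.44 and 1.69 TPM against 5.97 and 6.59 TPM (1.51 ± 0.14, adjusted p = 0.039). For these 2 genes both sets were below the wild-type ranges of 8.34 to 16.4 TPM and 15.3 to 23.4 TPM. Xlr4b, the fourth tested member, stood at 0.35 and 0.46 TPM against 2.24 and 1.33 TPM (adjusted p = 0.159). The family list has 10 members, of which 4 were tested and 6 stayed under the minimum level. Related copies can share reads, and how alike these transcripts are was not measured, so the split of reads among them is uncertain. The scale understates differences of genes as low as Xlr4a.

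The start windows of the 3 Xlr genes that passed are shown because these genes moved together (RefSeq, GRCm38.p6, each from 250 bases before to 50 after the annotated start). Xlr3a lies on the minus strand (chrX:73097046-73097345), Xlr3b on the plus strand (chrX:73191929-73192228) and Xlr4a on the minus strand (chrX:73082458-73082757). Capitals mark CCAGCCAATCAGAGA, the longest run of letters that Xlr4a shares with Xlr3a and with Xlr3b. It is present on either strand in 9 of 32851 windows (0.0274%), 5 of which belong to Xlr genes, and it contains CCAATCA, which 7.82% of windows hold on either strand. The run covers window bases 226 to 240 in Xlr3b and 203 to 217 in Xlr4a, before the annotated start, but bases 270 to 284 in Xlr3a, after it. The Xlr3a window also holds all but the first letter of the run, with CCAATCA, before its start, not in capitals. Xlr3a and Xlr3b share a run of 58 letters.
Xlr3a: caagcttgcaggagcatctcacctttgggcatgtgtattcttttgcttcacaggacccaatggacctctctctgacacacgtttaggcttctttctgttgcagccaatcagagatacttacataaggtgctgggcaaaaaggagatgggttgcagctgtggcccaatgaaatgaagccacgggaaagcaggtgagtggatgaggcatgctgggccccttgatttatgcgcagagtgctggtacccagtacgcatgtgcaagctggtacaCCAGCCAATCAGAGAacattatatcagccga
Xlr3b: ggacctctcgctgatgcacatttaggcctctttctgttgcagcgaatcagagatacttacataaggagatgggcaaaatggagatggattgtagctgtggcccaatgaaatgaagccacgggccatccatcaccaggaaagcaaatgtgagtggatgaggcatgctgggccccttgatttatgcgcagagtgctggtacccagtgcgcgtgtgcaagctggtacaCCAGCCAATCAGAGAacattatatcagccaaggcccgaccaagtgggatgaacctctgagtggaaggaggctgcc
Xlr4a: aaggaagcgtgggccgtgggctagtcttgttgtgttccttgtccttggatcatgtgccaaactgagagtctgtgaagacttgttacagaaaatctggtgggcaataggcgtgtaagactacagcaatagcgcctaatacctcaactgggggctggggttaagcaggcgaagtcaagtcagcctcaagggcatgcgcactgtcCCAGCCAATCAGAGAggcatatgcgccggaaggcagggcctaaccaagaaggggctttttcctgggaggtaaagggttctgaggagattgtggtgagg

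Other genes near the Xlr cluster also differed, in 2 blocks of opposite direction. Magea4, a member of the melanoma antigen family (X chromosome, 72222017 to 72222964), stood at 5.61 and 6.09 TPM in set 1 and at 20.6 and 23.1 TPM in set 3 (1.74 ± 0.10, adjusted p = 0.012), with 16.8 to 23.0 TPM in wild-type cells. All 9 tested genes from Zfp185 to Haus7 (72987339 to 73459044), which include the 4 Xlr genes, were higher in both set 3 libraries than in both set 1 libraries, and 5 of them passed the test. Besides the 3 Xlr genes these were Pnma5 (1.54-fold higher) and Gm18336 (2.58-fold higher), both named after their values were seen. The limits of this block were likewise picked with the values in view, so 9 of 9 is no test of a shared direction. Relative to the mean of the 4 wild-type libraries, the median of these 9 genes was -0.93 and -0.96 in set 1. It was -0.82 and -1.08 in mutant set 2 and -0.08 and 0.002 in set 3, so set 3 stood apart from both other mutant sets here. Across the wider span from Magea4 to Rpl10, 14 of 29 tested genes had a positive difference and 15 a negative one. That span reaches into the block of opposite direction.

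Beyond Haus7, genes were mostly lower in set 3. From Bcap31 to Pls3 (73686178 to 75875182, 2.19 Mb), 32 of 35 tested genes had a negative difference, with a median of -0.31, whereas the other 376 tested genes of the X chromosome had a median of 0.12. In 29 of the 35 genes both set 1 libraries were above both set 3 libraries, and in 0 genes the reverse held. Relative to the mean of the 4 wild-type libraries, the median of these 35 genes was 0.33 and 0.31 in the 2 set 1 libraries and -0.05 and -0.02 in the 2 set 3 libraries. It was -0.07 and -0.09 in the 2 libraries of mutant set 2, so set 1 was the group that stood apart from the other 8 libraries. The ends of the stretch were chosen after the values were seen, and no test of it was made. Rpl10, a protein of the large ribosomal subunit (74270812 to 74273135), was the 1 gene of the stretch that passed: 4665 and 4757 TPM in set 1 against 3300 and 3357 TPM in set 3 and 3351 to 3433 TPM in wild-type cells (-0.50 ± 0.03, adjusted p = 0.011). With the spread of 10 libraries 17 of the 35 were lower and 0 higher, among them Ssr4, Atp6ap1, Dkc1 and Vbp1. In that fit 2.12% of all tested genes were lower.

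The same measure was taken along all chromosomes, as the median of each 21 consecutive tested genes, which gave 12335 overlapping stretches with a middle value of 0.06. The lowest was -0.35, from Arhgap4 to G6pdx inside the X stretch. The highest was 0.48, on chromosome 2 from Gm14399 to Gm14305, a stretch that includes several zinc finger genes, where 17 of 21 genes had a positive difference and 0 passed the test (3 with the spread of 10 libraries). Between wild-type sets 2 and 1 the same medians ran from -0.26 to 0.29. Whole autosomes differed little: their medians lay between 0.03 on chromosome 7 and 0.10 on chromosome 18.

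**Figure D3:**
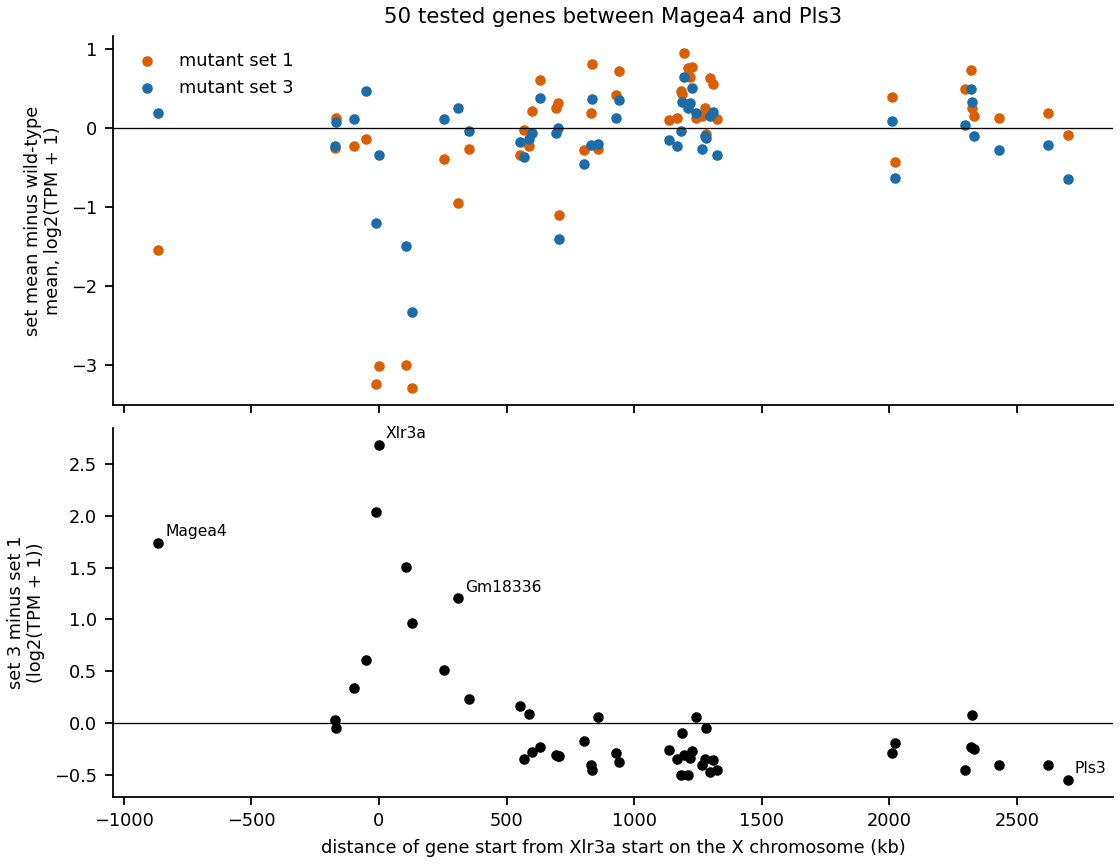
50 tested genes of the X chromosome from Magea4 to Pls3, by the distance of their start from that of Xlr3a in kb. The upper panel gives each set's mean minus the wild-type mean and the lower panel set 3 minus set 1, both on the log2(TPM + 1) scale; Xlr3a and its nearest neighbours lie above 0 in the lower panel, and 32 of the 35 genes from Bcap31 on lie below it.

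Of 9 genes of the Y chromosome list 4 were tested, and 2 of them were higher in set 3, against 0.211% of all tested genes. Ddx3y, an RNA helicase, stood at 23.1 and 21.3 TPM in set 1 and at 52.3 and 55.4 TPM in set 3, around the wild-type range of 34.5 to 42.0 TPM (1.24 ± 0.07, adjusted p = 0.012). Uty, related to histone demethylases, stood at 6.11 and 5.96 TPM against 13.2 and 12.3 TPM, with 9.37 to 10.4 TPM in wild-type cells (0.97 ± 0.10, adjusted p = 0.045). In both, set 1 was below and set 3 above every wild-type library. Eif2s3y, a translation initiation factor, stood at 126 and 125 TPM against 127 and 143 TPM (0.10 ± 0.07, adjusted p = 0.426), and Uba1y had a difference of 0.20 ± 0.16 (adjusted p = 0.511), so the Y-linked genes did not share 1 ratio.

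Single genes of other functions were higher in set 3. Faf1, a cofactor of the p97 ATPase that binds ubiquitin (chromosome 4, 109676588 to 109963960), stood at 5.04 and 5.01 TPM in set 1 and at 19.7 and 22.5 TPM in set 3, 4.196-fold apart (1.87 ± 0.10, adjusted p = 0.011). Wild-type cells held 34.0 to 37.8 TPM, so both sets were lower and set 1 the more so. The other 11 tested genes within 1 Mb of Faf1 did not pass. Fkbp6, an immunophilin needed in male meiosis, stood at 7.02 and 7.42 TPM against 21.9 and 23.0 TPM (1.51 ± 0.09, adjusted p = 0.012), on either side of the wild-type range of 13.6 to 17.3 TPM. Fkbp6 and Rpl10l were the 2 of 26 tested germline genes that passed, and the list's median was 0.21. Of all tested genes 0.337% passed, and their median was 0.06.

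Ezh2, the methyltransferase of Polycomb repressive complex 2, was the 1 of 26 tested Polycomb genes that passed, against 0.337% of all tested genes. It stood at 54.9 and 59.8 TPM in set 1, at 99.6 and 104 TPM in set 3 and at 116 to 140 TPM in wild-type cells, 1.77-fold apart (0.82 ± 0.06, adjusted p = 0.025). Rpl10l, a retrogene copy of Rpl10 known from the testis, stood at 50.8 and 48.8 TPM against 93.4 and 82.6 TPM (0.81 ± 0.08, adjusted p = 0.042), the reverse of Rpl10. Reads of the 2 copies may be hard to tell apart. Among genes chosen after their values were seen, Gab1, a docking protein of receptor kinases, was 2.0-fold, Pim2, a kinase, 2.57-fold, Naa15, a subunit of an N-terminal acetyltransferase, 1.68-fold, Kifc1, a mitotic kinesin, 1.64-fold and Ybx3, an RNA-binding protein, 1.5-fold higher in set 3.

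The genes lower in set 3 included abundant transcripts that differed by less than 1 on the log2 scale, and a few low ones that differed by more. Calb2, the calcium-binding protein calretinin (chromosome 8, 110137502 to 110168210), stood at 14.5 and 13.03 TPM in set 1 and at 4.25 and 4.12 TPM in set 3 (3.29-fold, -1.51 ± 0.11, adjusted p = 0.018). Its wild-type sets differed from each other as well, with 1.28 and 1.53 TPM in set 1 and 8.69 and 8.89 TPM in set 2. Bahcc1, a chromatin protein that reads a Polycomb mark, stood at 11.2 and 11 TPM against 5.09 and 4.85 TPM (-1.02 ± 0.10, adjusted p = 0.044), and its wild-type range of 3.51 to 6.66 TPM included set 3. Aqp3, a channel for water and glycerol, stood at 236 and 227 TPM against 137 and 124 TPM (-0.83 ± 0.06, adjusted p = 0.024), with 94.9 to 140 TPM in wild-type cells. In Bahcc1 and Aqp3 set 1 was thus the group outside the wild-type range.

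S100a13 and S100a1, neighbours on chromosome 3 that encode small calcium-binding proteins, were both lower in set 3 and both above wild type in each set. S100a13 stood at 130 and 139 TPM in set 1, at 89.2 and 85.7 TPM in set 3 and at 46.7 to 50.2 TPM in wild-type cells (-0.61 ± 0.06, adjusted p = 0.036). S100a1 stood at 74.2 and 70.8 TPM, 49.7 and 48.8 TPM, and 12.7 to 21.8 TPM (-0.55 ± 0.06, adjusted p = 0.04996, just under the threshold). Of 11 tested genes within 200 kb of them, the other 9 did not pass. Mt2, a metallothionein that binds zinc and copper, stood at 3793 and 3826 TPM in set 1 and at 2788 and 2787 TPM in set 3 (-0.45 ± 0.02, adjusted p = 0.011), both far above the wild-type range of 1497 to 1580 TPM. Gpx4, which reduces lipid peroxides, stood at 1038 and 1059 TPM against 847 and 823 TPM (-0.33 ± 0.03, adjusted p = 0.048), with 651 to 867 TPM in wild-type cells. These were the 2 of 23 tested antioxidant and metallothionein genes that passed, and the list's median was 0.02 in these data and -0.04 with median-of-ratios scaling. The share that passed over all tested genes was 0.337%.

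Apoe, a lipid carrier that is also listed as a primitive endoderm marker, was lower in set 3. It stood at 2246 and 2256 TPM in set 1, at 1838 and 1853 TPM in set 3 and at 800 to 923 TPM in wild-type cells (-0.29 ± 0.03, adjusted p = 0.036). It was the 1 of 12 tested genes of that list that passed, against 0.337% of all tested genes. The list's summed level was 2492 to 2502 TPM in set 1 and 2087 to 2089 TPM in set 3, and without Apoe it was 256 and 236 TPM in set 1 and 248 and 236 TPM in set 3, which overlap. The defining markers Gata4, Gata6 and Sox17 were at most 0.45, 0.85 and 0.20 TPM. Ubald2 stood at 154 and 145 TPM against 106 and 105 TPM (-0.50 ± 0.05, adjusted p = 0.045), and its wild-type range of 86.8 to 117 TPM included set 3.

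**Figure D4:**
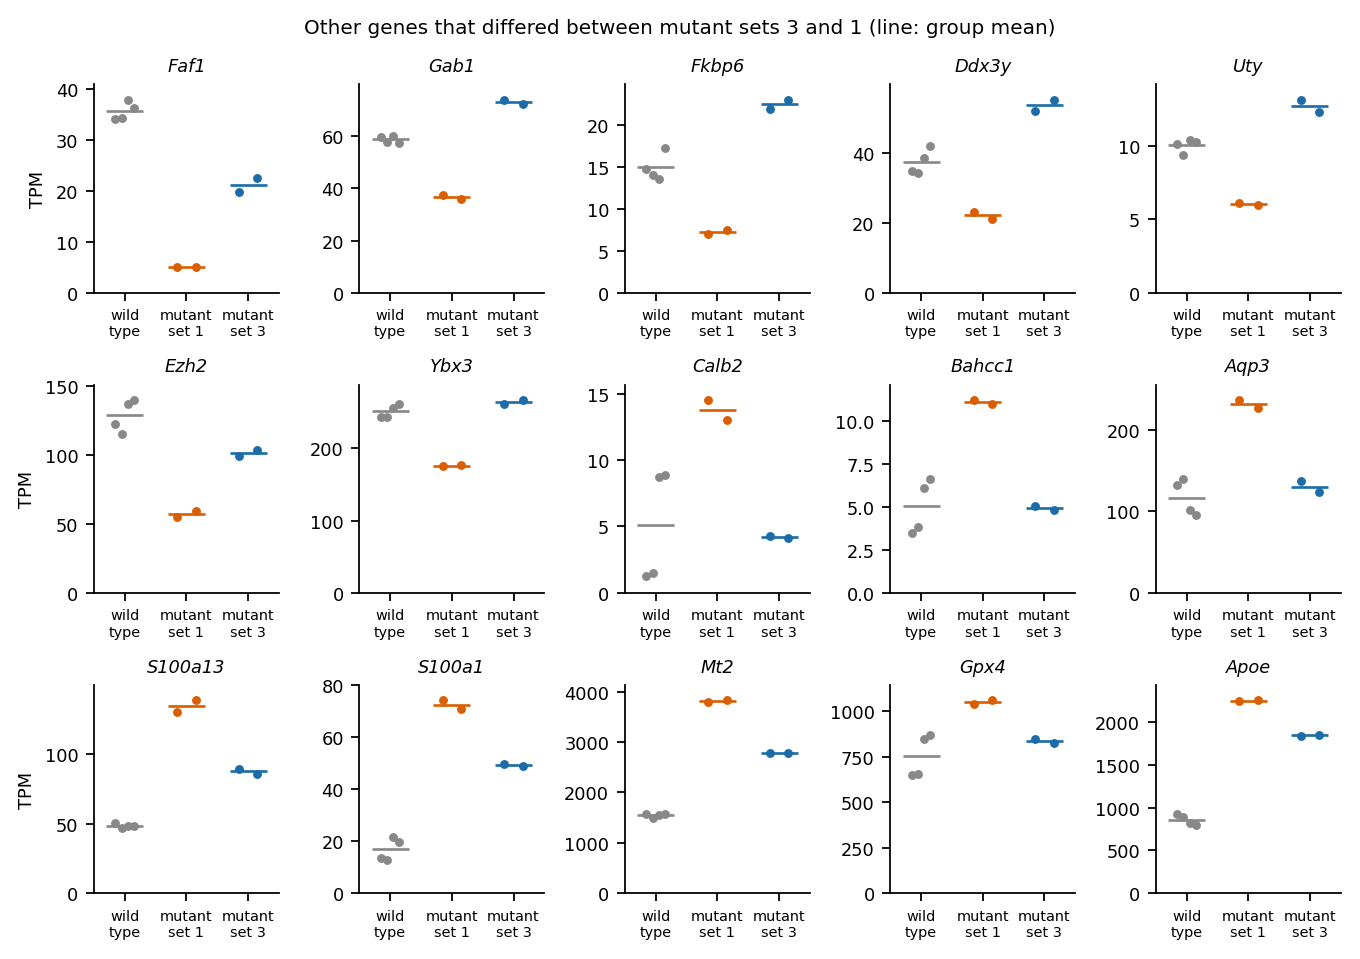
TPM of 15 further genes that differed between the sets, in the 4 wild-type, 2 mutant set 1 and 2 mutant set 3 libraries (1 point per library, line at the group mean, y axis from 0). The 2 mutant sets do not overlap in any panel; in Bahcc1 and Aqp3 set 3 lies within the wild-type range, and in Mt2, S100a13, S100a1 and Apoe both sets lie above it.

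Set 3 was more often the nearer of the 2 sets to the wild-type level among the genes that passed. Of the 43 genes, 33 (76.7%) had a set 3 mean nearer to the wild-type mean, against 53.4% of all tested genes. The wild-type mean lay between the 2 set means for 22 of the 43 (51.2%), above both for 10 (23.3%) and below both for 11 (25.6%). Over all tested genes these shares were 19.4%, 42.4% and 38.2%. Without replicate 1 of set 3 the share between was 83.3% of the 24 genes then called, and without replicate 2 it was 100% of 2. This is a description of levels, and no test of it was made. The 43 genes were selected for a clear gap between the sets, and a wider gap holds the wild-type mean more often. The share between the set means is thus not directly comparable with that of all tested genes. Neighbouring genes, such as the 5 that passed from Zfp185 to Haus7, are also not separate cases.

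Of the 50 gene lists, 10 held a gene that passed. Several lists held none in the test on 4 libraries but many with the spread of 10 libraries, so they rest on that wider estimate. In that fit 4.82% of all tested genes were higher and 2.12% lower, and the median of all tested genes was 0.06. Members named from these lists were chosen after their values were seen. The serine, folate and methionine cycle supplies carbon units for nucleotides and methylation, and 10 of its 21 tested genes were higher and 0 lower (list median 0.25). Each SE below is from the test on 4 libraries. Psat1 and Phgdh, enzymes of serine synthesis, stood at 165 and 163 against 200 and 207 TPM (0.31 ± 0.04, adjusted p = 0.0027 with the spread of 10 libraries and 0.081 with that of 4) and at 70.3 and 70.6 against 86.9 and 90.6 TPM (0.33 ± 0.05, 0.0096 and 0.095). Mthfd2, a mitochondrial folate enzyme, stood at 49.5 and 49.4 against 64.5 and 66.8 TPM (0.40 ± 0.05, 0.0035 and 0.081). In wild-type cells Psat1 stood at 307 to 316 TPM, Phgdh at 128 to 144 TPM and Mthfd2 at 93.4 to 97.1 TPM, so all 3 were above both sets.

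Genes of the integrated stress response and unfolded protein response are switched on when amino acids or protein folding fail. With the spread of 10 libraries 15 of 32 tested members were higher and 0 lower (list median 0.21), against 4.82% and 2.12% of all tested genes. Atf4, the central transcription factor of the stress response, stood at 224 and 228 TPM in set 1, at 269 and 257 TPM in set 3 and at 287 to 295 TPM in wild-type cells (0.22 ± 0.04, adjusted p = 0.016 and, on 4 libraries, 0.132). Chac1, which degrades glutathione, stood at 8.26 and 9.87 against 15.2 and 14.5 TPM (0.66 ± 0.11, 0.015 and 0.110), with 7.50 to 9.81 TPM in wild-type cells. Ddit3, the transcription factor CHOP, stood at 64.8 and 74.0 against 95.6 and 87.3 TPM (0.39 ± 0.09, 0.036 and 0.144), with 30.2 to 33.9 TPM in wild-type cells. The members thus stood on different sides of the wild-type level.

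DNA replication genes gave 9 of 28 higher and 0 lower (median 0.15) and mitosis genes 6 of 24 higher and 0 lower (median 0.14), again with the spread of 10 libraries. Over all tested genes that fit had 4.82% higher and 2.12% lower. Rrm1, a subunit of ribonucleotide reductase, stood at 72.4 and 71.8 against 92.0 and 89.9 TPM (0.33 ± 0.05, adjusted p = 0.031 and, on 4 libraries, 0.088), and Cenpe, a kinetochore motor, at 19.6 and 17.4 against 27.0 and 30.4 TPM (0.61 ± 0.10, 0.010 and 0.103). Of 83 tested ribosomal protein genes 14 were lower and 1 higher (median -0.08). The core and naive pluripotency lists had 4 of 15 and 5 of 24 genes lower, and 0 and 1 higher. Nanog stood at 347 and 352 against 312 and 312 TPM (-0.16 ± 0.04, 0.012 and, on 4 libraries, 0.144). Both sets were below its wild-type range of 507 to 575 TPM.

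These counts depended on scaling and on single libraries. Leaving out a library also moved the background over all tested genes. The number higher rose without set 1 replicate 1 and fell without each other library of sets 1 and 3, and the number lower fell each time. List counts with a library left out are thus not comparable with the shares of 4.82% and 2.12%. Over all genes the 10-library fit gave 302 higher and 438 lower with median-of-ratios scaling, 374 and 389 with quantile normalization and 222 and 304 with a correction of GC content, so whether more genes were higher or lower differed with the scaling. The serine list had 8, 6 and 6 higher under these scalings, and 9, 4, 3 and 2 without set 1 replicate 1, set 1 replicate 2, set 3 replicate 1 and set 3 replicate 2. In the same order the stress list had 5, 10 and 9, and then 14, 4, 1 and 2. DNA replication genes had 2, 4 and 2 higher, and then 10, 0, 1 and 0, and mitosis genes 4, 4 and 3, and then 7, 1, 2 and 0. The ribosomal protein list had 18, 3 and 8 lower (4 higher under quantile normalization), and then 18, 1, 1 and 1. The core pluripotency list had 8, 5 and 8 lower, and then 3, 2, 0 and 0, and the naive list 5, 5 and 4, and then 5, 2, 0 and 0.

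**Figure D5:**
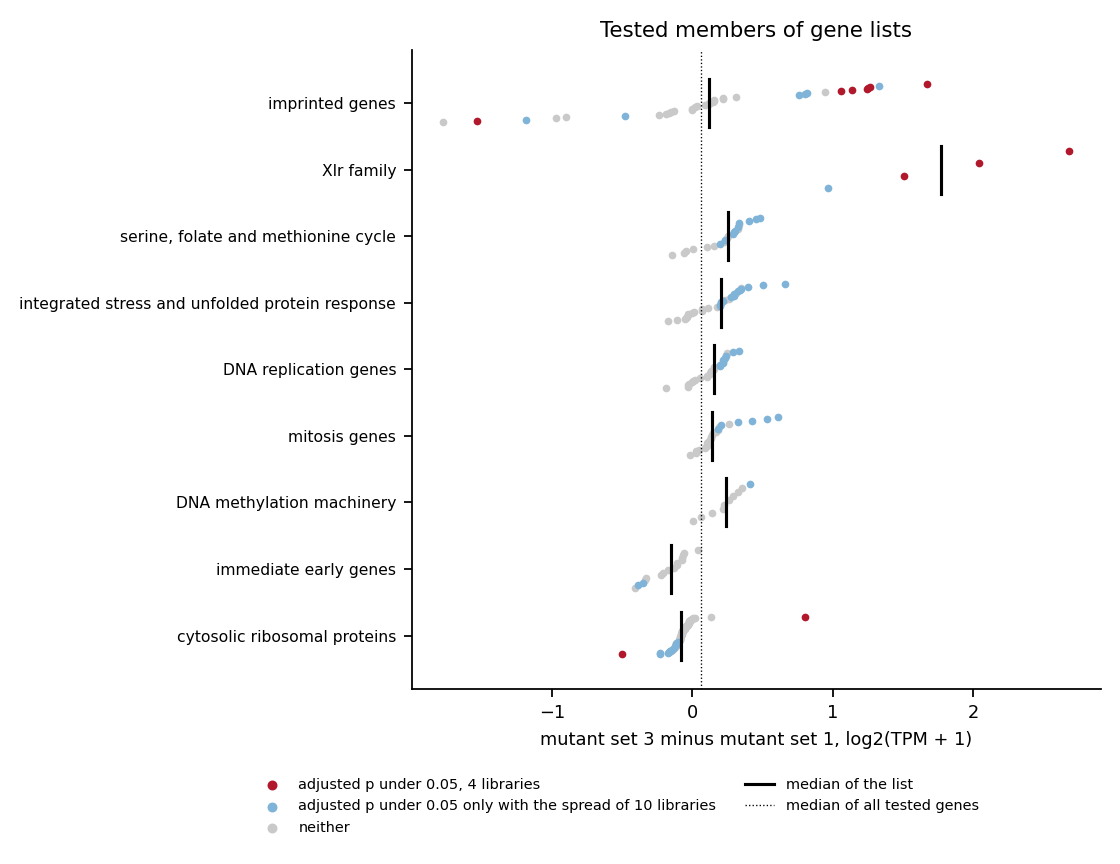
Difference of set 3 minus set 1 on the log2(TPM + 1) scale for each tested gene of 9 lists (1 point per gene, black bar at the list's median, dotted line at the median of all tested genes, 0.06). Points in red passed the limma test on 4 libraries, points in blue only with the spread of 10 libraries, and points in grey neither; the imprinted and ribosomal protein lists have points in red on both sides of 0.

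Differences between the 2 mutant sets were about as large as those between the 2 wild-type sets. The median absolute log2 difference was 0.14 between the means of mutant sets 3 and 1, 0.12 between the 2 libraries of set 1 and 0.09 between those of set 3. In wild-type cells it was 0.12 between set means, and 0.08 and 0.09 within sets. The ratio of the difference between sets to the mean difference within them was 1.30 for the mutant and 1.36 for the wild-type sets.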

How the data were processed

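Poly(A) RNA of E14 cells was sequenced in 10 libraries. The authors deposited TPM per gene; the submitters' processing notes list RSEM, STAR, Trim Galore and DESeq2 and the build mm10, without versions, strand mode or annotation release. All 10 columns were matched to samples by name, and 0 per-sample columns were left out. TPM hold no depth, so counting error is unknown, and a higher level of abundant transcripts lowers the rest. Of 55401 genes, 55141 were placed by identifier in GENCODE M21.

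The 12772 genes averaging 1 TPM or more in mutant sets 1 and 3 were compared as log2(TPM + 1). The two-sided test was limma's moderated one (version 3.58.1 under R 4.3.3), with the prior variance following mean level, 2 residual degrees of freedom and 3.15 from the prior. Benjamini-Hochberg adjustment ran over all tested genes, with a threshold of 0.05. An exact permutation test of 2 against 2 cannot go below p = 0.333, so the test leans on the spread of all genes. The members and the 50 gene lists were chosen with earlier results of these data known, so lists were described by counts and medians and not tested. Text names Ankrd11, 10 passing genes in each direction by size of difference, where libraries did not overlap (predicted or clone names passed over), and up to 3 passing members per list, 26 in all. Apart from cell type markers, all other genes named were chosen after their values were seen, also where this is not said beside them.

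Tested on simulated libraries of 12772 genes for the comparison of sets 3 and 1, 4 calls were false, and 57% of 100 genes with a log2 change of 1 and 87% of 100 with a change of 2 were recovered. The simulated noise was independent for each gene and library, without shifts shared by the genes of a library. These figures therefore need not hold for the real libraries. Promoter windows came from RefSeq (GRCm38.p6), and 33 of the 43 genes that passed had one. The settings varied were the pseudocount (0.1), the filter (none or 5 TPM), median-of-ratios and quantile scaling, corrections for GC content and length, wider or other variance estimates, a replicate block, a minimum difference of 1 and leaving out each library. Replicate numbers were not taken to pair libraries. Figures were drawn with matplotlib 3.10.9.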

Additional observations from a re-analysis of the deposited data

How the results depend on the processing

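All named genes that passed kept their direction under every setting run. Ankrd11, which did not pass, changed sign without replicate 1 of set 1. Passing itself was less stable than direction. Of the 25 named genes that passed, 16 did so with median-of-ratios scaling and 15 with the GC correction, and each of these kept 29 of the 43 genes. Among 12 other settings, Xlr3b passed in 5, and Apoe, Rpl10l and Uty each passed in 6. The number of genes that passed was 43 (27 higher, 16 lower) and moved by less than 1.5 times with a pseudocount of 0.1, median-of-ratios, quantile, GC and length settings and robust moderation. It was 72 (42 and 30) at a mean of at least 5 TPM, 180 (109 and 71) with the spread of 6 mutant libraries, 886 (615 and 271) with that of 10, and 26 (18 and 8) with a difference of at least 1. It was 0 (0 and 0) without a filter on low values, where 3046 genes had an unadjusted limma p under 0.05, and 0 without the mean-variance trend, where 2191 had one. The cause of these shifts was not tested.

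Leaving out 1 library gave 0 to 24 genes, 0 to 23 higher and 0 to 1 lower, 0 to 3 lists with a gene that passed, and 83.3 to 100% of genes with the wild-type mean between the sets; here the lone library of a set is assumed to vary like the other set. The 10 lists with a gene that passed became 0 without a filter or without the trend, 6 with median-of-ratios scaling, 24 with the spread of 6 and 46 with that of 10 libraries. The range of autosome medians, 0.073, became 0.039 without a filter and 0.040 with the GC correction. The 886 genes of the 10-library spread became 526 with the GC correction and 1297, 253, 167 and 144 without set 1 replicate 1, set 1 replicate 2, set 3 replicate 1 and set 3 replicate 2, alternatives chosen after seeing the data.

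With the replicate block, 72 genes passed (45 higher, 27 lower), among them all 43. The labels do not say whether replicate numbers pair the libraries. The differences of replicate 2 minus replicate 1 in sets 1 and 3 had a correlation of -0.05 across 12772 genes. This value shows no shared replicate difference but cannot exclude pairing, and genes are not independent replicates. The X stretch from Bcap31 to Pls3 kept a median of -0.38 to -0.31 in all settings run. TPM without counts limit all low genes, whose counting error is unknown.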

Other observations

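Some genes of developmental interest passed only with the spread of 10 libraries and were chosen after their values were seen. Otx2, a transcription factor of the primed epiblast and anterior brain, stood at 5.15 and 5.37 TPM in mutant set 1, at 2.18 and 1.87 TPM in set 3 and at 10.3 to 15.6 TPM in wild-type cells, so both sets were low and set 3 the lower (-1.05 ± 0.14, adjusted p = 0.0014 and, on 4 libraries, 0.077). Rhox5, an X-linked homeobox gene, stood at 38.1 and 44.5 TPM in set 1, at 15.1 and 23.7 TPM in set 3 and at 49.3 to 60.1 TPM in wild-type cells (-1.08 ± 0.22, 0.015 and 0.132). Igfbp4, which binds insulin-like growth factors, stood at 29.4 and 32.3 TPM against 19.3 and 16.2 TPM (-0.77 ± 0.11, 0.0084 and 0.083). Smc3 and Smc1a, the core subunits of the cohesin ring, were 1.23-fold and 1.17-fold higher in set 3, with adjusted p of 0.0059 and 0.031 (0.113 and 0.164 on 4 libraries), and Esco2 was the third of 20 tested genes of mitotic cohesin and its regulators that passed in that fit, in which 6.94% of all tested genes passed. Rec8, a meiotic cohesin subunit, passed as well (0.39 ± 0.10, 0.035 and 0.164). Dnmt3l, a cofactor of DNA methylation, stood at 133 and 137 TPM in set 1 and at 179 and 181 TPM in set 3, with 84.7 to 136 TPM in wild-type cells (0.41 ± 0.04, 0.0016 and 0.053).

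Among pseudogenes that passed, Gm2436 and Gm2446 on chromosome 12 mirrored each other: Gm2436 was listed at 0 and 0 TPM in set 1 and at 4.70 and 4.03 TPM in set 3, and Gm2446 at 4.62 and 4.12 TPM and at 0 and 0 TPM. In wild-type cells Gm2436 was listed at 0 in set 1 and at 6.15 and 3.99 TPM in set 2, and Gm2446 at 5.97 and 3.56 TPM and at 0, so assignment of reads between them is uncertain. Gm15526, a processed pseudogene, was listed at 0 in both set 1 libraries and at 57.4 and 33.0 TPM in set 3, while the wild-type libraries ran from 0 to 78.6 TPM. Among the 4 wild-type libraries, 0 of 52 extreme values of the 26 named genes lay apart by Dixon's criterion. That criterion looks for 1 value apart from the rest, so it cannot flag a split between the 2 wild-type sets. Calb2 has such a split, and its gaps were only 0.026 and 0.033 of the range.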
